A study of Mus musculus with 48 samples.

Results

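The liver burns fatty acids in mitochondria and peroxisomes, and 37 genes that encode this machinery were followed across 48 mouse liver RNA libraries. They were taken by gene name from the deposited gene tables, which together list 29221 genes, and all 37 were found and were tested in every comparison. The list holds 27 genes for fatty acid activation, mitochondrial oxidation and ketone bodies, and 10 peroxisomal genes. All mice carried a floxed Pparg gene, which encodes the nuclear receptor PPARγ. After 16 weeks on diet they received AAV8-TBG-Cre, a virus that drives Cre recombinase from a hepatocyte promoter (labelled knockout), or AAV8-TBG-null (control). Females ate a low fat (LF) diet for 34 weeks, a high fat (HF) diet for 34 weeks, or HF for 18 weeks and then, for 16 weeks, a diet rich in cholesterol and fructose as well as fat (HFCF). Males ate the HF or the HFCF diet on the same schedule. Each of the 6 female groups (control and labelled knockout on LF, HF and HFCF) had 4 mice, and each of the 4 male groups had 6. The labels call the mice adult and give no age, and whole liver was used, so fewer cells of a type and less RNA per cell cannot be told apart.

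Fatty acids are first joined to coenzyme A by long-chain acyl-CoA synthetases (Acsl genes). The carnitine shuttle (Cpt1a, Slc25a20, Cpt2) then carries them into mitochondria, where dehydrogenation, hydration, a second dehydrogenation and thiolysis shorten the chain, and the liver turns much of the product into ketone bodies. Peroxisomes take very-long-chain and branched substrates through ABC transporters (Abcd2, Abcd3) and shorten them with their own bifunctional enzymes and thiolases. Many of these genes are classical targets of PPARα, the liver's fasting-responsive nuclear receptor, which binds a direct repeat of AGGTCA with 1 base between the repeats (DR1).

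Promoter windows of the members were examined for that repeat, in the 300 bases from 250 before to 50 after the start given by RefSeq (GRCm38.p6). A window was available for 31 members. A DR1 with at most 2 mismatches, on either strand, lay in 3 of the 31 (9.7%), those of Echs1, Etfa and Slc25a20, against 4.4% of 27025 genes with a window. The exact letters AGGTCA lay in 4 of the 31 (12.9%), against 18.1% of all those genes, and a DR1 can contain such a match. The windows of the 3 members with the largest falls in HF labelled-knockout males are shown with that of Slc25a20, which holds the repeat. All are in lower case, 5′ to 3′ on the gene's strand, with the repeat match in capitals.

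Acaa1b (chr9:119157044-119157343, minus strand): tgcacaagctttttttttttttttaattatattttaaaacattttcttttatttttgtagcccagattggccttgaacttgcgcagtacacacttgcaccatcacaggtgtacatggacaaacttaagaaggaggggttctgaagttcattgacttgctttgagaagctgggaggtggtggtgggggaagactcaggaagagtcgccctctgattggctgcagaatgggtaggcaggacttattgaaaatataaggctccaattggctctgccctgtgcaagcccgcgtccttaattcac
Pex11a (chr7:79743082-79743381, minus strand): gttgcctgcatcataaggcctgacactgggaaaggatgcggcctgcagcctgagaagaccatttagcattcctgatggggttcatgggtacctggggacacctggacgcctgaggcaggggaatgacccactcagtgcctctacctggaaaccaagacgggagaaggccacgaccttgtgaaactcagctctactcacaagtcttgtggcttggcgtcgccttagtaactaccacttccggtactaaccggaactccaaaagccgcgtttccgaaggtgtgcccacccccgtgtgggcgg
Pdk4 (chr6:5496229-5496528, minus strand): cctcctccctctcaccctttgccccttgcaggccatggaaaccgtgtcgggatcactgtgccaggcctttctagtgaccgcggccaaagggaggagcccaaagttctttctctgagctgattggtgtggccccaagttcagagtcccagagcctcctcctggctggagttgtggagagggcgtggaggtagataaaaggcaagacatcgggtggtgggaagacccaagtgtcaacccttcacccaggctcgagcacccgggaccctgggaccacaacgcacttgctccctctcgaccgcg
Slc25a20 (chr9:108661886-108662185, plus strand): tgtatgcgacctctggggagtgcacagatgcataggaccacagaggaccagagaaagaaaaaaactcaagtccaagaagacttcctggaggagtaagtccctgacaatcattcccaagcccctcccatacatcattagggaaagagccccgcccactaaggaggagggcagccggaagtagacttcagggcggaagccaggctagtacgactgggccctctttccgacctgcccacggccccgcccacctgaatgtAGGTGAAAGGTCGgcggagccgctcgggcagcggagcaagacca

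The Slc25a20 match began 6 bases after the start, with 2 mismatches. The windows of Acaa1b, Pex11a and Pdk4 held no such match, which says only that these letters are not in this window. CpG pairs numbered 4 in the Acaa1b window, 13 in that of Pex11a and 12 in that of Pdk4, with a median of 17 over the 31 members and 7 over all genes with a window. By position, 6 members lay on chromosome 9 and 5 on chromosome 5. Hadha and Hadhb, which encode the α and β subunits of the mitochondrial trifunctional protein, lie back to back on chromosome 5 with 85 bases between them. Acaa1b and Acaa1a, a pair of peroxisomal thiolase genes, lie 182582 bases apart on chromosome 9.

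Libraries held 15338239 to 22072884 reads on genes. Pparg itself was not lower in any labelled-knockout group: HFCF males had 32.0 ± 5.59 CPM (a read count scaled to library size; SD, n = 6) as controls and 55.9 ± 6.05 CPM (n = 6) as labelled knockouts. Gene-level counts include exons outside the deleted part, so the labels are kept as "labelled knockout" throughout. The 7 hepatocyte markers, Alb included, were expressed in every library, and the 3 white adipocyte markers found in the tables (of 4) summed to at most 0.218 CPM. Replicate 1 of the HFCF control males stood apart, with Acaa1b at 3993 CPM against 2081 to 2569 CPM in the other 5 libraries of its group. Several results that rest on it, but not all, are also given without it.

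Per unit of transcript length (FPKM, averaged over the 10 group means), the members spanned a wide range. Acaa1b, whose product is a peroxisomal 3-ketoacyl-CoA thiolase, was highest at 887 FPKM, and its mitochondrial counterpart Acaa2 followed at 520 FPKM. Next came Etfa, which passes electrons from the dehydrogenases to the respiratory chain, at 195 FPKM, and Cpt1a, the gate of the carnitine shuttle, at 175 FPKM. The peroxisomal bifunctional enzyme genes Ehhadh and Hsd17b4 stood at 164 and 150 FPKM. The lowest were Acsl3 at 8.68 FPKM, Pdk4 at 6.41 FPKM and Acad12 at 3.52 FPKM.

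**Figure D1:**
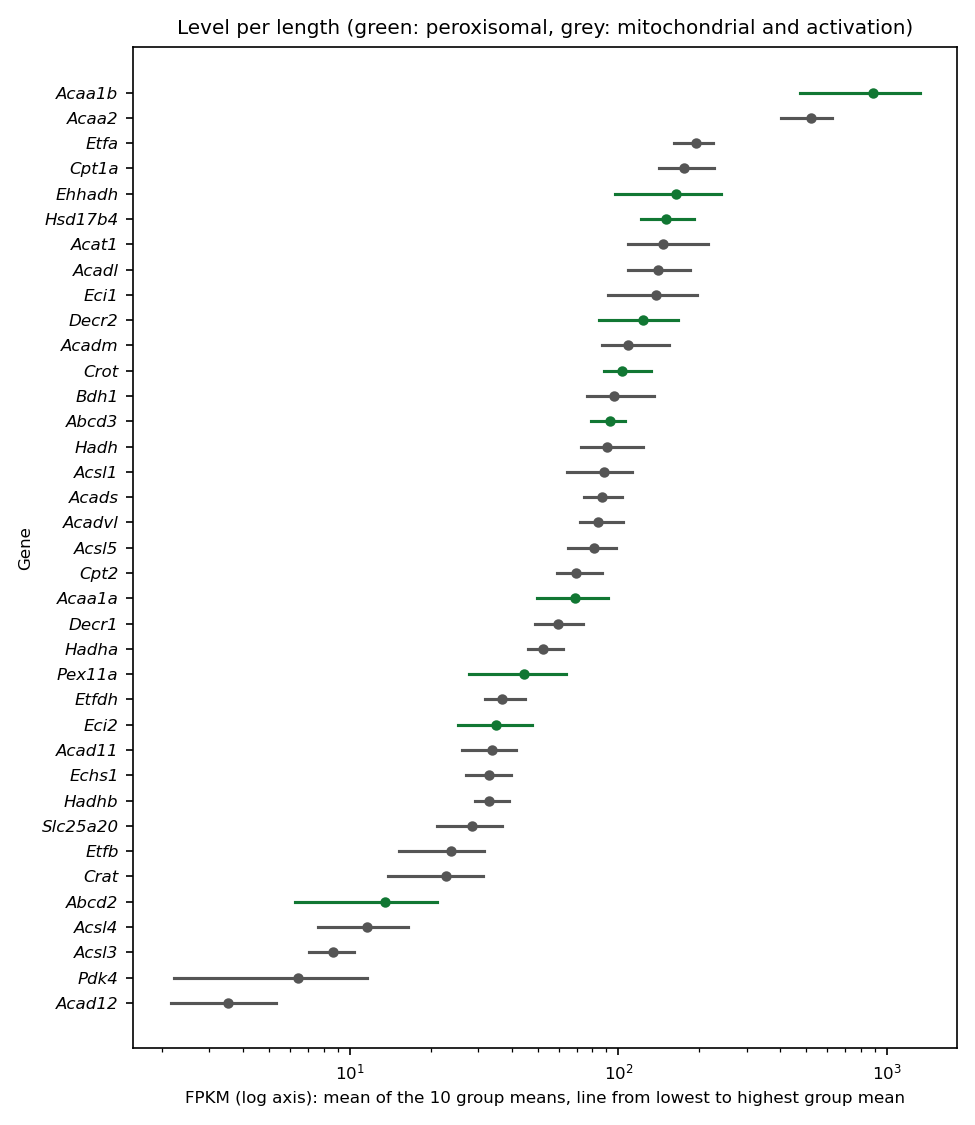
Level of each member per unit of length (FPKM, log axis); the dot is the mean of the 10 group means and the line runs from the lowest to the highest group mean. Acaa1b (887 FPKM) stands highest and Acad12 (3.52 FPKM) lowest, and the line of Pdk4 is the longest on the log scale.

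Spread across groups differed between members. The highest group mean of Pdk4, the kinase that holds back pyruvate oxidation when fat is burned, was 5.17 times its lowest, on the CPM scale. The ratio was 3.39 for Abcd2, 2.75 for Acaa1b and 2.46 for Ehhadh, and only 1.34 for Hadhb and 1.35 for Hadha. Pdk4 varied within groups too, with a median coefficient of variation of 39.2%, against 7.08% for Hsd17b4.

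Summed over class, the mitochondrial and activation genes reached 2979 ± 318 FPKM (SD, n = 4) in HF control females and 1940 ± 87.5 FPKM (n = 6) in HFCF labelled-knockout males. The peroxisomal genes ran from 2136 ± 319 FPKM (n = 4) in HFCF control females to 1158 ± 65.6 FPKM (n = 6) in HF labelled-knockout males. Acaa1b made up a large part of the peroxisomal sum. Without it, the sum was 851 ± 40.6 FPKM in HF control males and 683 ± 32 FPKM in HF labelled-knockout males (n = 6 each), and the libraries still did not overlap.

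**Figure D2:**
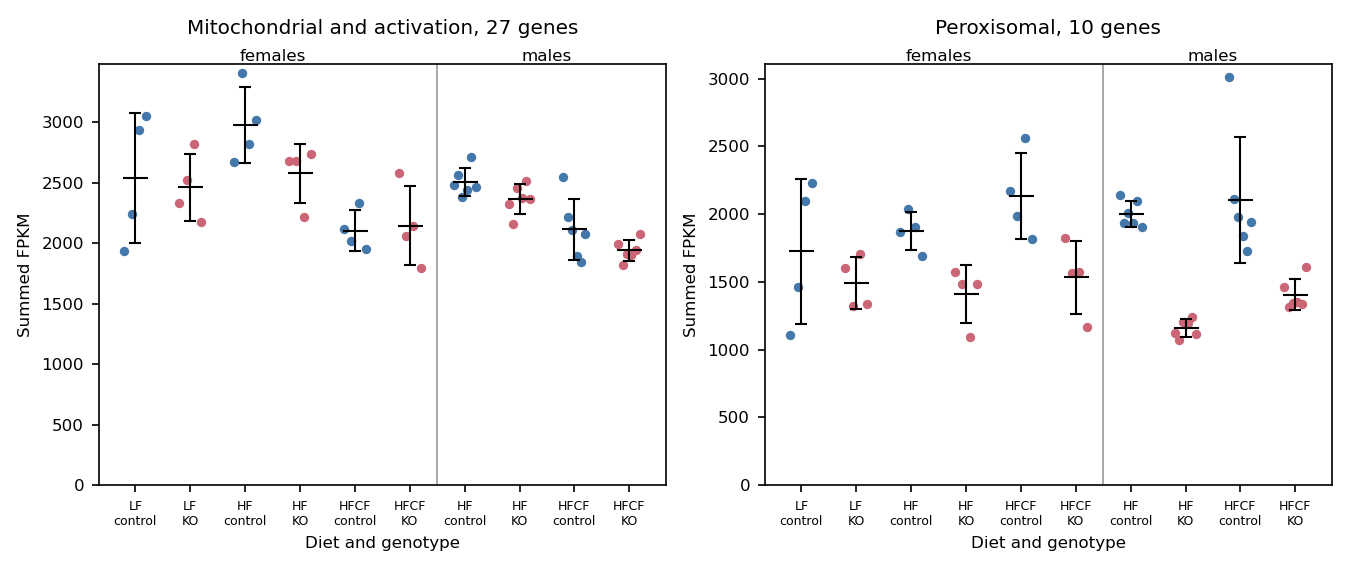
Summed FPKM of the 27 mitochondrial and activation genes (left) and the 10 peroxisomal genes (right) by group; points are libraries (blue controls, red labelled knockouts, KO), the black bar the mean and SD. Peroxisomal sums of HF labelled-knockout males (1069 to 1242 FPKM) lie under those of HF control males (1903 to 2140 FPKM).

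The first comparison asked how the genes differed between labelled knockouts and controls in HF males. In total 18 of the 37 members fell (edgeR adjusted p under 0.05) and 0 rose, where 9.88% of the 14041 genes tested fell and 8.57% rose. The peroxisomal class had 7 of 10 lower, with a median log2 change of -0.335, and the mitochondrial and activation class had 11 of 27 lower, with a median of -0.171. The median over all genes tested was 0. Of the 18, 10 had no overlap between the libraries of the groups, as did 41% of all genes that fell.

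Pdk4 fell most on the log scale. In HF control males it ran from 17.1 to 40.7 CPM with a median of 26.4 CPM, and in HF labelled-knockout males from 4.09 to 10.7 CPM with a median of 8.52 CPM. Every labelled-knockout library was below every control library, and the log2 change was -1.84 (SE 0.27, edgeR adjusted p = 0.000241). Among the mitochondrial genes Acad12, a member of the acyl-CoA dehydrogenase family, came next: it ran from 25.1 to 28.9 CPM in controls and from 11.8 to 16.2 CPM in labelled knockouts, with no overlap, a log2 change of -0.94 (SE 0.08) and an edgeR adjusted p of 1.98e-06. Crat, which moves short acyl groups between carnitine and coenzyme A, fell from a control range of 95.4 to 132 CPM (median 120 CPM) to 65.7 to 84.1 CPM (median 75.9 CPM), again without overlap. Its log2 change was -0.63 (SE 0.08, edgeR adjusted p = 0.000114).

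The other steps moved less. Of the carnitine shuttle, Cpt1a changed by -0.35 on the log2 scale and Slc25a20 by -0.25, with edgeR adjusted p of 0.00306 and 0.0117, while Cpt2 stood at 0.01 (adjusted p = 0.905). Both enoyl auxiliary enzymes, which handle unsaturated chains, fell: Eci1 by 0.37 and Decr1 by 0.19 on the log2 scale. Hadhb fell by 0.20 on that scale and was the only one of 5 genes for hydration, dehydrogenation and thiolysis to pass. Of the activation genes Acsl4 and Acsl5 fell, by 0.37 and 0.31 on the log2 scale. None of the 3 electron-transfer genes (Etfa, Etfb, Etfdh) passed, and neither did the ketone body enzyme genes Acat1 and Bdh1. In 12 fits that left out 1 library each, Acad11 kept its call in 3, Acsl5 in 6, Decr1 in 7 and Hadhb in 10, and the other 14 members that fell kept theirs in all 12.

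In the peroxisomal class, Acaa1b had the largest change. It ran from 2104 to 2558 CPM (median 2246 CPM) in HF control males and from 816 to 1041 CPM (median 962 CPM) in labelled knockouts. The groups lay far apart, with a log2 change of -1.28 (SE 0.08, edgeR adjusted p = 5.39e-08). Pex11a, which promotes peroxisome division, ran from 168 to 245 CPM (median 204 CPM) in controls and from 79.1 to 103 CPM (median 89.3 CPM) in labelled knockouts. It too did not overlap, with a log2 change of -1.21 (SE 0.09, edgeR adjusted p = 3.41e-07). Ehhadh, the L-bifunctional enzyme gene, ran from 351 to 473 CPM in controls and from 262 to 316 CPM in labelled knockouts, a log2 change of -0.47 (SE 0.07, edgeR adjusted p = 0.000324). Abcd2, Decr2, Acaa1a and Hsd17b4 fell by 0.39, 0.35, 0.32 and 0.29 on the log2 scale. The members of this class that did not pass were Abcd3, Eci2 and Crot, the last of which makes medium-chain acylcarnitines for export from peroxisomes.

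Pathway genes outside the 37 members were counted in the same fit. Of 17 tested other mitochondrial and ketone genes, 9 fell and 2 rose. Of 31 other peroxisomal genes 1 fell and 6 rose. Ppara, which encodes PPARα, showed a log2 change of -0.36 that did not pass (edgeR adjusted p = 0.102).

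Other cell markers moved too. Summed hepatocyte markers ran from 87958 to 101598 CPM in HF labelled-knockout males and from 59831 to 82740 CPM in HF control males, without overlap. Of 6 stellate cell markers 4 were lower, and 3 of 5 blood genes were higher, with summed blood genes from 164 to 816 CPM in labelled knockouts and from 165 to 247 CPM in controls. Their part in the result was not tested. The count fell to 6 with all 10 groups in one fit: Pdk4, Acaa1b, Pex11a, Acad12, Crat and Ehhadh.

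On the HFCF diet, 5 members fell in labelled-knockout males and 0 rose, where 1.27% of the 14685 genes tested fell and 0.933% rose. They were Acaa1b, Pex11a, Acad12, Acaa1a and Eci1, and all 5 showed no overlap between groups (75.4% of all genes that fell showed none). All 5 had also fallen on the HF diet, where the mice were other animals. The share of all genes that fell on both diets was not counted. Acaa1b ran from 2081 to 3993 CPM (median 2361 CPM) in HFCF control males and from 1276 to 1730 CPM (median 1350 CPM) in labelled knockouts. Its log2 change was -0.87 (SE 0.14, edgeR adjusted p = 0.00396) with all libraries and -0.71 (adjusted p = 0.000161) without replicate 1 of the controls. Pex11a ran from 141 to 192 CPM in controls and from 86.3 to 112 CPM in labelled knockouts, a log2 change of -0.67 (SE 0.09, edgeR adjusted p = 0.00071), and -0.62 without that library.

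Acad12 ran from 32.5 to 40.6 CPM in HFCF control males and from 20.3 to 23.1 CPM in labelled knockouts. Its log2 change was -0.64 (SE 0.06, edgeR adjusted p = 8.08e-05). Eci1 ran from 121 to 178 CPM and from 93.3 to 110 CPM, a log2 change of -0.46 (SE 0.08, edgeR adjusted p = 0.00683). Acaa1a ran from 246 to 426 CPM and from 196 to 233 CPM, a log2 change of -0.47 (SE 0.11, edgeR adjusted p = 0.0356). All 5 fell without replicate 1 of the controls as well, where Eci1 changed by -0.37 and Acaa1a by -0.36 on the log2 scale. Acaa1a passed in only 4 of 12 fits that left out 1 library, with edgeR adjusted p from 0.00967 to 0.0851: it was lost without replicate 2 or 3 of the controls and without any 1 of the labelled knockouts. DESeq2's Wald test called 9 members lower, and 3 were lower with all 10 groups in one fit.

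The difference between the labelled-knockout effects on the 2 diets was tested in males. In 3 members the effect was more positive on HFCF than on HF, where 0.987% of the 15096 genes tested were called in that direction and 0.57% in the other. The interaction was 1.63 for Pdk4, 0.52 for Pex11a and 0.35 for Cpt1a on the log2 scale, with edgeR adjusted p of 0.0472, 0.0334 and 0.0416. Pdk4 in HFCF males ran from 16.7 to 35.4 CPM in controls and from 13.1 to 46.5 CPM in labelled knockouts, so the groups overlapped there. Cpt1a in HFCF males measured 714 ± 49.3 CPM in controls and 723 ± 12.4 CPM in labelled knockouts (SD, n = 6 each). With all 10 groups in one fit 0 members were called. Leaving out 1 library gave 0 to 5 calls over 24 fits, and of these fits Pdk4 was called in 9, Pex11a in 17 and Cpt1a in 8. The fits with 0 calls left out replicate 3 of the HF controls, replicate 3 or 5 of the HF labelled knockouts, replicate 3 or 6 of the HFCF controls, or replicate 1 or 3 of the HFCF labelled knockouts. Without the last of these, the library highest in Pdk4, its interaction was 1.29 (edgeR adjusted p = 0.0946), and without replicate 1 of the HFCF controls it was 1.54 (adjusted p = 0.0581) while 5 members were called.

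**Figure D3:**
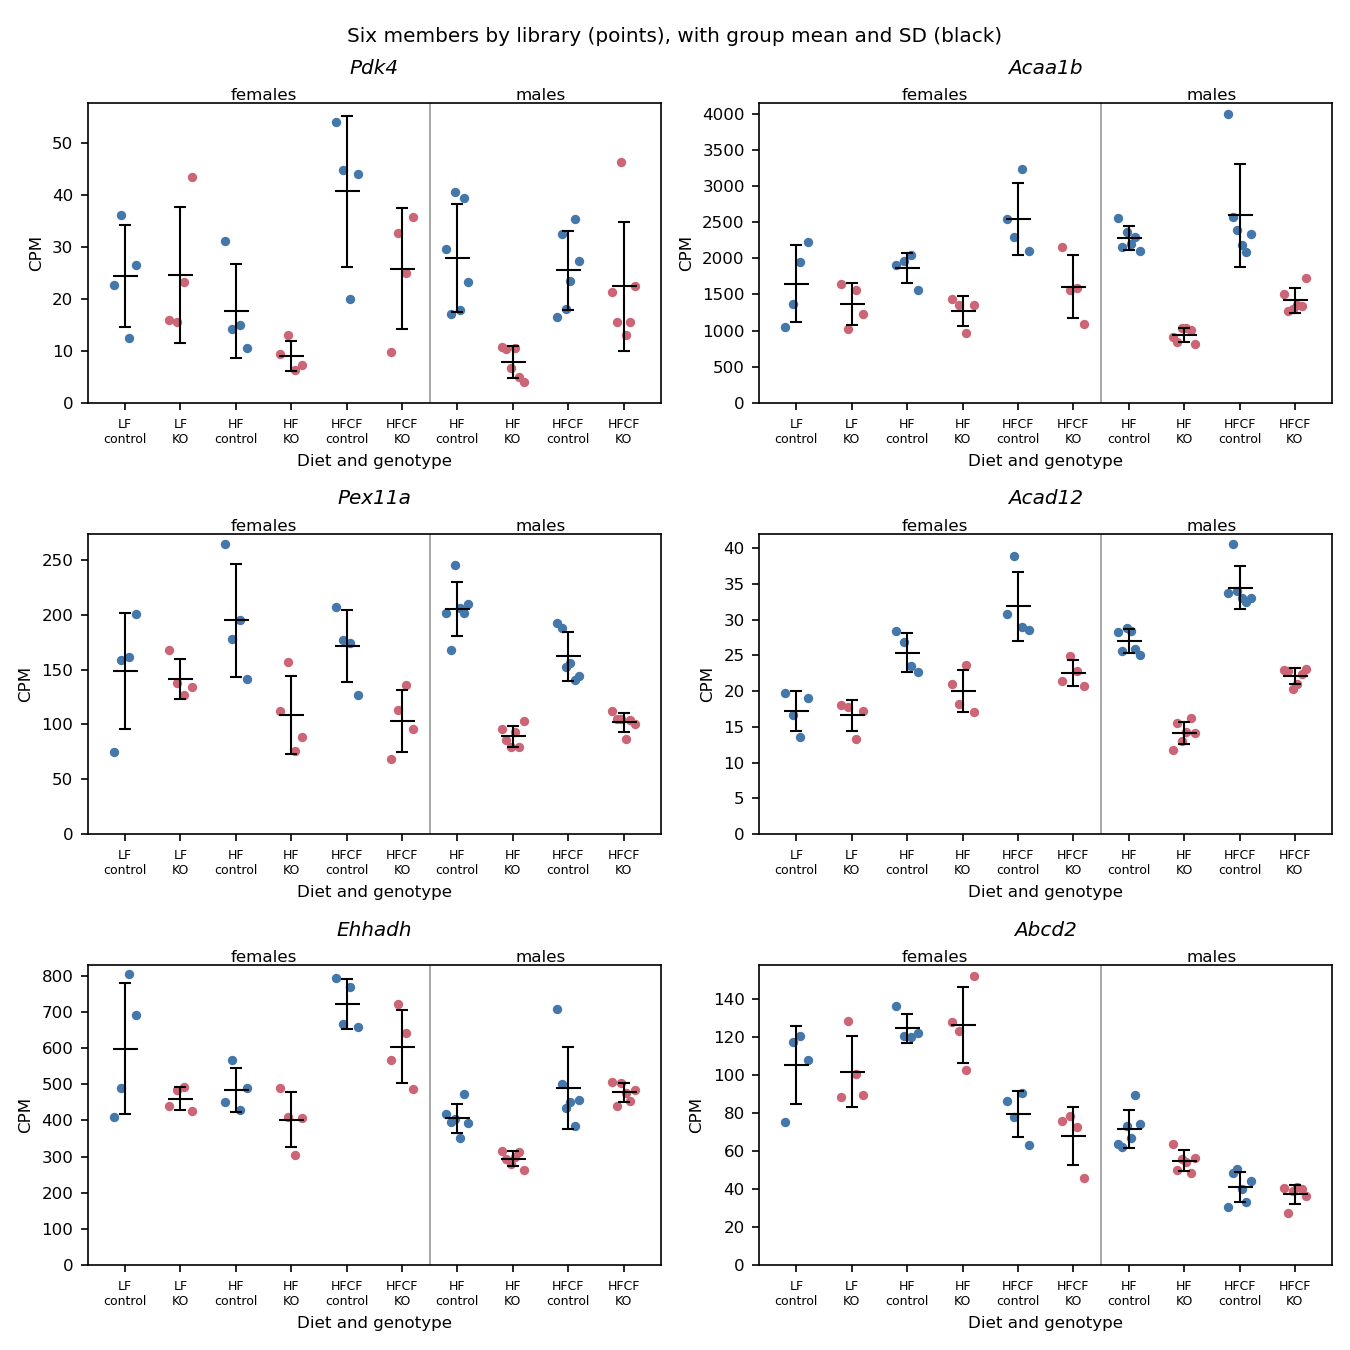
CPM of 6 members in each library (blue controls, red labelled knockouts, KO), with the group mean and SD in black, from an axis that starts at 0. In HF males the labelled knockouts lie under the controls for Pdk4, Acaa1b, Pex11a, Acad12 and Ehhadh, and replicate 1 of the HFCF control males stands high for Acaa1b (3993 CPM) and Ehhadh (708 CPM).

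In females no member passed for the labelled knockout on any diet. On LF, 0 members had an unadjusted edgeR p under 0.05, and 0% of all genes tested passed. On HF, 0% of all genes passed after adjustment, and 15 members had an unadjusted p under 0.05, a level reached by 8.03% of all genes. There 32 of 37 log2 changes were negative and the median was -0.258. A count of 3 members was called lower by DESeq2's Wald test. On HFCF, 5 members (Acad12, Acsl4, Acaa1b, Crat and Pex11a) had an unadjusted p under 0.05, a level reached by 8.95% of all genes, while 0.0534% of all genes passed after adjustment. By DESeq2's Wald test 0 members passed on LF and 0 on HFCF.

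Values for the 5 members that fell in males on both diets are set beside those in females. In HF females, Acaa1b measured 1908, 1965, 2039 and 1565 CPM in controls and 1439, 1348, 972 and 1352 CPM in labelled knockouts, a log2 change of -0.55 (edgeR adjusted p = 0.514) with no overlap. Pex11a measured 264, 178, 196 and 141 CPM in controls and 112, 157, 75.9 and 88.5 CPM in labelled knockouts, which overlapped, with a log2 change of -0.85 (adjusted p = 0.532). In HFCF females, Acad12 measured 30.9, 39.0, 29.0 and 28.5 CPM in controls and 21.5, 25.0, 22.8 and 20.8 CPM in labelled knockouts. These did not overlap, and the log2 change was -0.48 (edgeR adjusted p = 0.403). The other diet showed overlap for both: Acaa1b in HFCF females measured 2541, 2301, 3233 and 2103 CPM in controls and 2163, 1568, 1589 and 1098 CPM in labelled knockouts (log2 change -0.64, adjusted p = 0.544). Acad12 in HF females measured 28.4, 26.9, 23.5 and 22.7 CPM in controls and 20.9, 18.2, 23.6 and 17.1 CPM in labelled knockouts (log2 change -0.34, adjusted p = 0.601). Pex11a in HFCF females measured 207, 177, 174 and 127 CPM in controls and 68.8, 113, 136 and 95.6 CPM in labelled knockouts, with overlap and a log2 change of -0.71 (edgeR adjusted p = 0.482). The log2 changes of Eci1 and Acaa1a were -0.45 and -0.25 in HF females and -0.09 and -0.19 in HFCF females, none of which passed.

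The labelled-knockout effect was also compared between the sexes. On HF, 0 members differed (0% of all genes passed), with 5 at an unadjusted p under 0.05, where 10.6% of all genes were. The interaction of Acaa1b was -0.72 (edgeR adjusted p = 0.174) and that of Acad12 -0.59 (adjusted p = 0.219), with the negative sign for a more negative effect in males. DESeq2's Wald test called 2 members, 2 were called without replicate 1 of the HF control females, and 1 without replicate 3 of the HF labelled-knockout females. On HFCF, 0 members differed (0% of all genes), with 4 at an unadjusted p under 0.05 (9.67% of all genes) and 0 by DESeq2. Between diets in females, 0 members differed for HFCF against HF (3 at an unadjusted p under 0.05, 4.32% of all genes) and 0 for HF against LF (0 at that level, 3.71% of all genes), with 0% of all genes passing in each and 0 members by DESeq2.

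The HFCF diet was set against the HF diet within each sex and genotype. In control females 24 members fell and 4 rose, where 13.8% of the 14701 genes tested fell and 16.9% rose. With the replicate number as a block in the fit, 0 members were called. Of the mitochondrial and activation genes 19 of 27 fell, with a median log2 change of -0.46, and of the peroxisomal genes 5 of 10 fell, with a median of -0.279. The median over all genes was -0.019. Of the 24 members that fell 22 had no overlap between groups, as did 75.6% of all genes that fell. Of the 4 that rose 2 had none, as did 80.9% of all genes that rose. By role, those that fell were 1 of 4 activation genes (with 1 higher), 2 of 4 carnitine shuttle genes, 5 of 6 acyl-CoA dehydrogenases, 4 of 5 genes for hydration, dehydrogenation and thiolysis, both enoyl auxiliary enzymes, all 3 electron-transfer genes and both ketone body enzymes. Hadha kept its call in 1 of 8 fits that left out 1 library, and Decr1 and Acsl1 in 4 each. Of the peroxisomal genes that fell, Hsd17b4 and Acaa1a kept theirs in 2 of 8 each and Eci2 in 5. The other members that fell kept theirs in all 8.

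Acadm, the medium-chain acyl-CoA dehydrogenase gene, measured 446, 830, 538 and 640 CPM in HF control females and 360, 331, 385 and 313 CPM on HFCF. The groups did not overlap, and the log2 change was -0.81 (SE 0.17, edgeR adjusted p = 0.0105). Acat1, which condenses acetyl-CoA on the way to ketone bodies, measured 657, 1113, 686 and 836 CPM on HF and 469, 449, 513 and 534 CPM on HFCF. Its log2 change was -0.73 (SE 0.16, edgeR adjusted p = 0.0118), without overlap. Bdh1, which reduces acetoacetate to β-hydroxybutyrate, measured 497, 625, 502 and 509 CPM on HF and 339, 325, 376 and 318 CPM on HFCF. It also showed no overlap, with a log2 change of -0.64 (SE 0.10, edgeR adjusted p = 0.00561). Acaa2 measured 794, 1103, 902 and 1024 CPM on HF and 558, 577, 744 and 574 CPM on HFCF, a log2 change of -0.63 (SE 0.13, edgeR adjusted p = 0.0105).

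Of the 10 peroxisomal genes in control females, 5 fell and 2 rose, where 13.8% of all genes tested fell and 16.9% rose. The share that rose was thus close to that of all genes. Abcd2, a transporter of very-long-chain acyl-CoA, measured 136, 121, 120 and 122 CPM in HF control females. On HFCF it measured 86.6, 78.3, 90.9 and 63.3 CPM, a log2 change of -0.64 (SE 0.11, edgeR adjusted p = 0.00645). Eci2, an enoyl-CoA isomerase gene, measured 192, 330, 244 and 247 CPM on HF and 153, 169, 190 and 124 CPM on HFCF, so that the groups nearly touch, with a log2 change of -0.66 (SE 0.17, edgeR adjusted p = 0.0207). Ehhadh went the other way, from 451, 567, 428 and 490 CPM on HF to 795, 668, 769 and 657 CPM on HFCF. The groups did not overlap, and its log2 change was 0.59 (SE 0.11, edgeR adjusted p = 0.00802). Acaa1b also rose, by 0.45 (SE 0.15), just inside the threshold (edgeR adjusted p = 0.04997). Pdk4 rose by 1.20 (SE 0.37, adjusted p = 0.0345) and Acsl5 by 0.54 (adjusted p = 0.0457), both with overlapping groups. In fits that left out 1 library, Acaa1b and Pdk4 kept their call in 2 of 8 each and Acsl5 in 1, with edgeR adjusted p up to 0.135, 0.0932 and 0.11.

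In labelled-knockout females 4 members fell and 2 rose, where 6.01% of the 14650 genes tested fell and 8.44% rose. Of the 4 that fell 1 had no overlap, while 89.1% of all genes that fell had none. Abcd2 measured 128, 123, 103 and 152 CPM on HF and 75.9, 78.3, 72.5 and 45.7 CPM on HFCF, without overlap (log2 change -0.89, SE 0.17, edgeR adjusted p = 0.0102). Decr2, Acsl1 and Acad11 fell by 0.63, 0.61 and 0.43 on the log2 scale, and Pdk4 and Ehhadh rose by 1.53 and 0.60. Without replicate 1 of the HFCF labelled knockouts 18 members were called, 15 lower and 3 higher, and all 10 groups in one fit gave 12. Only 1 was called without replicate 2, 3 or 4 of that group or replicate 4 of the HF labelled knockouts, and 2 and 3 without replicates 1 and 2 of the latter.

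In control males 15 members fell and 1 rose, where 9.31% of the 14475 genes tested fell and 13% rose. Of the 15 that fell 4 had no overlap, as did 30% of all genes that fell. Abcd2 ran from 62.3 to 89.8 CPM (median 70.1 CPM) on HF and from 30.6 to 50.4 CPM (median 42.2 CPM) on HFCF, a log2 change of -0.77 (SE 0.12, edgeR adjusted p = 0.0015) with no overlap. Cpt1a ran from 807 to 945 CPM on HF and from 655 to 765 CPM on HFCF, also without overlap (log2 change -0.29, SE 0.07, edgeR adjusted p = 0.00666). Bdh1 ran from 372 to 449 CPM and from 261 to 360 CPM, and Acadl, the long-chain acyl-CoA dehydrogenase gene, from 269 to 305 CPM and from 203 to 266 CPM. Acad12 was the member that rose, from 25.1 to 28.9 CPM on HF to 32.5 to 40.6 CPM on HFCF (log2 change 0.38, SE 0.07, edgeR adjusted p = 0.00195). Without replicate 1 of the HFCF controls 27 members were called, 26 of them lower. Without replicate 2 or 5 of the HF controls, or replicate 4, 5 or 6 of the HFCF controls, 8 to 10 were called, and all 10 groups in one fit gave 6.

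In labelled-knockout males 20 members fell and 8 rose, where 20% of the 14314 genes tested fell and 21.6% rose. The share of members that rose was thus close to that of all genes. Groups did not overlap for 11 of the 20 and 6 of the 8, nor for 46.2% of all genes that fell and 45.3% of those that rose. Of the 27 mitochondrial and activation genes 16 fell and 5 rose, and of the 10 peroxisomal genes 4 fell and 3 rose. Pdk4 ran from 4.09 to 10.7 CPM on HF and from 13.1 to 46.5 CPM on HFCF, with no overlap, a log2 change of 1.53 (SE 0.31) and an edgeR adjusted p of 0.00121. Without replicate 3 of the HFCF labelled knockouts, the highest library, its log2 change was 1.17 (adjusted p = 0.0014). Ehhadh ran from 262 to 316 CPM on HF and from 441 to 507 CPM on HFCF (log2 change 0.72, SE 0.06, edgeR adjusted p = 1.5e-06).

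Acad12 and Acaa1b, both low in HF labelled-knockout males, rose as well. Acad12 went from 11.8 to 16.2 CPM on HF to 20.3 to 23.1 CPM on HFCF, a log2 change of 0.66 (edgeR adjusted p = 1.93e-05). Acaa1b went from 816 to 1041 CPM to 1276 to 1730 CPM, a log2 change of 0.60 (edgeR adjusted p = 8.93e-05). Abcd2 fell from 48.6 to 63.9 CPM to 27.4 to 40.9 CPM (log2 change -0.54, adjusted p = 0.000302), and Acaa2 from 783 to 969 CPM to 573 to 691 CPM (log2 change -0.50, adjusted p = 4.39e-05). The diet comparisons use the same libraries as the labelled-knockout comparisons, so the values of the one are not independent of the other. With all 10 groups in one fit 18 members were called.

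Across the 4 HFCF against HF comparisons, 4 members fell in every one: Acad11, Acsl1, Decr2 and Abcd2. How many of all genes fell in all 4 was not counted. Of these members only Abcd2 kept its call in every fit that left out 1 library, and the other 3 kept theirs in 2 of 8 such fits in labelled-knockout females. Acsl1 also kept its call in 4 of 8 in control females and 4 of 12 in control males, and Decr2 in 9 of 12 in each male comparison. With all 10 groups in one fit, Decr2 did not pass in control or labelled-knockout males (edgeR adjusted p = 0.0855 and 0.0574). Acad11 did not pass in labelled-knockout males (edgeR adjusted p = 0.0747). Ehhadh and Pdk4 rose in 3 and fell in 0. Hadhb and Crot were called in none. Of 17 or 18 tested mitochondrial and ketone genes outside the 37 members, 6, 4, 4 and 6 fell and 2, 2, 2 and 4 rose in control females, labelled-knockout females, control males and labelled-knockout males. Of 31 such peroxisomal genes, 17, 2, 8 and 21 fell in the same order, and 0, 0, 0 and 1 rose. Ppara fell by 0.54 in control males (adjusted p = 0.00183) and did not pass in the other 3.

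Markers of other cells moved with this diet. All 4 cholangiocyte markers rose in each of the 4 comparisons, and Kupffer cell and macrophage markers rose in 4, 1, 4 and 5 of 8 (control females, labelled-knockout females, control males, labelled-knockout males), while 2 fell in the last. Endothelial markers rose in 3, 1, 0 and 1 of 4, and blood genes fell in 0, 0, 0 and 5 of 5. Stellate cell markers rose in 2, 5, 4 and 5 of 6, and their sum ran from 843 to 1315 CPM in HFCF control females, against 230 to 843 CPM on HF. Of 7 hepatocyte markers 5, 0, 4 and 6 fell, and the summed hepatocyte markers ran from 52995 to 66036 CPM in HFCF control females, against 87672 to 103043 CPM on HF. Their part in the lower members was not tested.

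**Figure D4:**
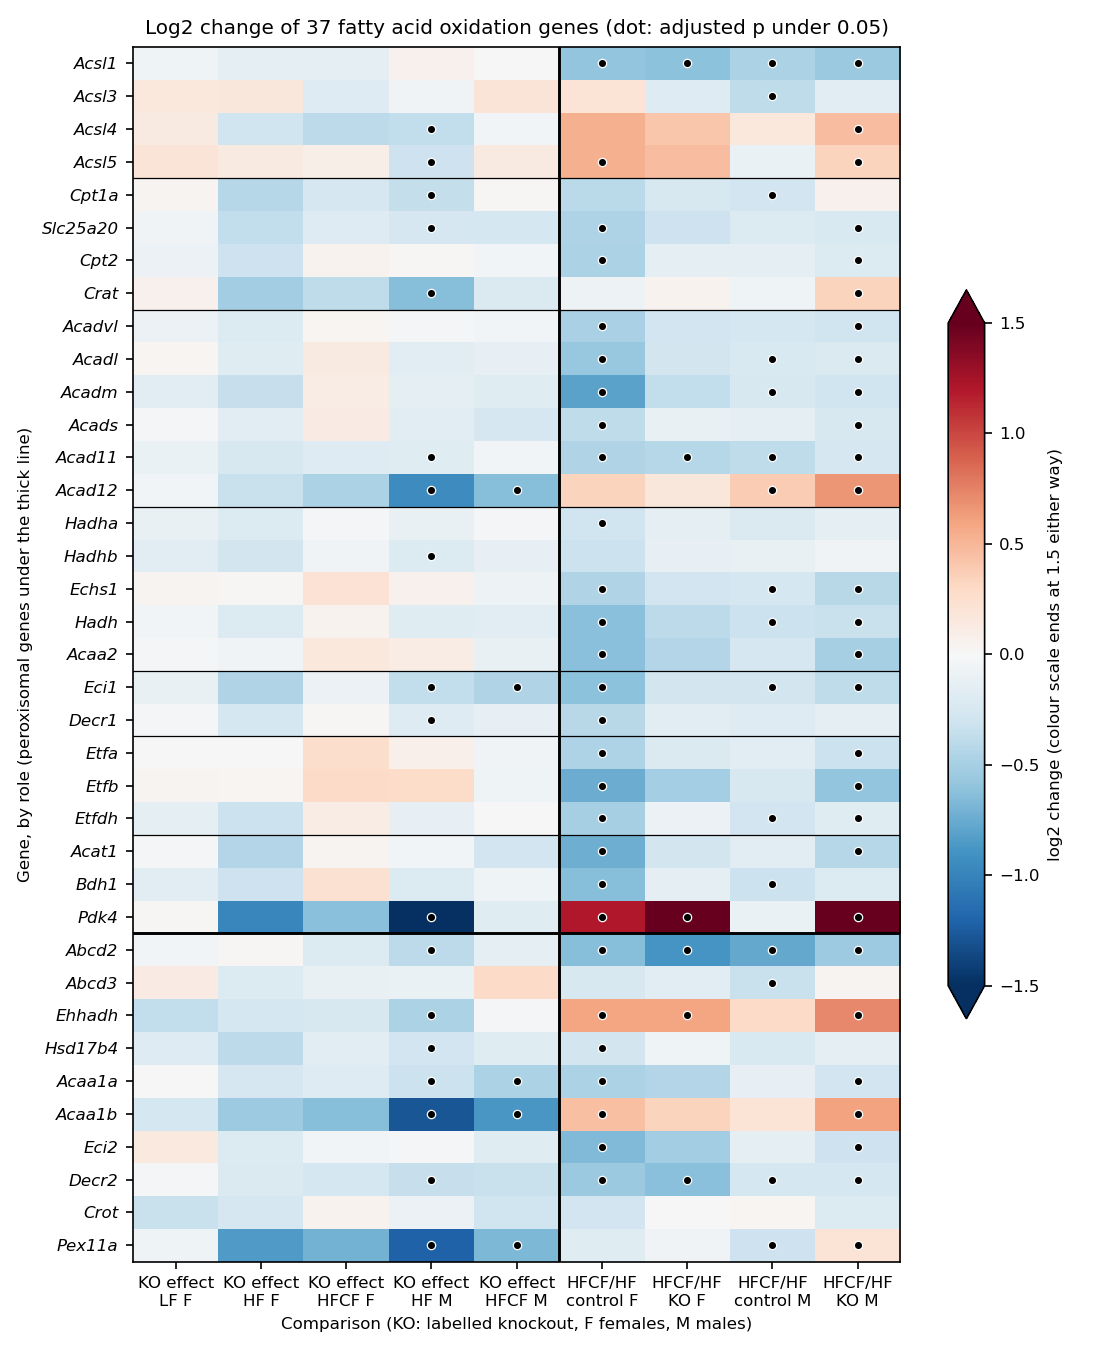
Log2 change of each of the 37 members (rows, by role, peroxisomal below the thick line) in 5 labelled-knockout (KO) and 4 HFCF against HF comparisons (columns); blue is lower, red higher, and a dot marks an adjusted p under 0.05. Dots in the labelled-knockout columns appear only in males (18 on HF, 5 on HFCF), and in the HFCF columns Acad11, Acsl1, Decr2 and Abcd2 are blue with a dot in all 4.

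HF was set against LF in females. In controls 0 members passed, where 0.696% of all genes did, and 6 had an unadjusted edgeR p under 0.05, a share close to the 16.3% of all genes at that level. All 6 were positive: Acads, Acad12, Hadh, Echs1, Bdh1 and Acat1, at log2 changes from 0.30 to 0.62. DESeq2's Wald test called 3 members higher and all 10 groups in one fit called 4. In labelled knockouts 0 members passed, where 0.155% of all genes did, and 6 had an unadjusted p under 0.05 (13.4% of all genes did), with Pdk4 at -1.44 and Crat at -0.72 the most negative (edgeR adjusted p = 0.11 for each). In the Wald test of DESeq2, 2 members were lower.

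Males were compared with females among controls. The numbers in the library descriptions run in separate ranges for males and females. In any comparison of the sexes here, sex and what these numbers mark therefore cannot be told apart. On HF 13 members were lower in males and 1 was higher, where 9.58% of the 14492 genes tested were lower and 8.52% higher. Abcd2 ran from 62.3 to 89.8 CPM in males and measured 136, 121, 120 and 122 CPM in females, a log2 difference of -0.80 (SE 0.10, edgeR adjusted p = 0.000335). Bdh1, Acadl, Cpt2, Decr2 and Slc25a20 were lower by 0.43, 0.41, 0.38, 0.37 and 0.32 on the log2 scale, each without overlap. Of the 13 lower members 7 had no overlap, as did 55.8% of all genes that were lower. With all 10 groups in one fit, Decr2 and Slc25a20 did not pass (edgeR adjusted p = 0.0508 and 0.102). Acsl4, whose product favours arachidonic acid, was higher in males by 0.66 (adjusted p = 0.0495), with overlap. Without replicate 1 of the HF control females 24 members were called, 20 lower and 4 higher. Without replicate 2, 3 or 4 of those females, or replicate 1 or 4 of the males, 6 to 9 were called. Summed hepatocyte markers did not overlap either, at 59831 to 82740 CPM in males and 87672 to 103043 CPM in females. Taken singly, only 1 of 7 hepatocyte markers was called lower in males and 0 higher, and 2 of 4 endothelial markers were higher in males. Their part in the result was not tested.

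On HFCF 2 members were lower in males and 0 higher, where 1.34% of the 15054 genes tested were lower and 1.3% higher. Abcd2 ran from 30.6 to 50.4 CPM in males and measured 86.6, 78.3, 90.9 and 63.3 CPM in females, a log2 difference of -0.93 (SE 0.14, edgeR adjusted p = 0.00402). Acsl3 ran from 25.2 to 34.9 CPM in males and measured 46.5, 39.1, 47.7 and 47.9 CPM in females, a difference of -0.55 (SE 0.10, edgeR adjusted p = 0.0133). Abcd2 was thus lower in males on both diets, and the libraries of the sexes did not overlap on either. On HFCF 92% of all genes lower in males showed no overlap. By DESeq2's Wald test 5 members were called. Without replicate 1 of the HFCF control males 4 were called, and without replicate 1 of the HFCF control females 1 was.

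The diet effect itself was compared between the sexes in controls. With all libraries 0 members differed, where 0.00646% of all genes did, 15 had an unadjusted p under 0.05 (16.5% of all genes) and DESeq2 called 0. The interaction was 0.59 for Acadm and 0.58 for Acat1, positive where the effect was less negative in males, and -1.30 for Pdk4 (edgeR adjusted p from 0.188 to 0.22). Without replicate 1 of the HF control females 10 members were called, 6 with a positive and 4 with a negative interaction.

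Some counts are uncertain because reads can be shared with a near-identical copy. Of the 100-base windows of the longest annotated transcript, 65.2% of those of Etfb and 52.8% of those of Hadhb occur in another gene as well. The shares were 22.6% for Acaa1b and 21.7% for Acaa1a, each with the other, and 10.2% for Acad12, with Acad10. Reads were not assigned by strand. Reads from a stretch that Acsl5, Echs1 or Crat shares with a gene on the other strand therefore cannot be told apart. Overlap was taken over whole gene spans, and the overlapping genes had counts of their own, up to 1522, 1507 and 503 reads in a library. Acsl3 overlaps Utp14b on the same strand, with up to 406 reads in a library against 306 to 1006 for Acsl3.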

How the data were processed

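RNA from whole livers of 48 mice was sequenced in libraries that do not keep strand. Per the submitters' processing notes, STAR 2.6.1, HTSeq 0.6.1, DESeq2 and the GRCm38/mm10 genome were used; their roles are not given in the sources used here. Per the file headers, the 11 deposited tables hold raw read counts and FPKM per gene and library. The deposited tables also hold log2 fold changes, p-values and adjusted p-values of the authors for each comparison, which were not used for any value given here. The tables were joined into 29221 genes and 48 libraries; 0 of 1341082 repeated counts differed.

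CPM were computed from the counts with TMM scaling. Comparisons used edgeR 4.0.16 (R 4.3.3): the quasi-likelihood test on the counts of the groups compared, after filterByExpr, with Benjamini-Hochberg adjustment over all genes tested and a threshold of 0.05. Each library is 1 mouse per the series' design text. Alternatives were DESeq2 1.42.0 size factors, DESeq2's Wald test, no filter, a fit over all 10 groups, a replicate block, and each library left out. The tests were also run on simulated counts with the same spread for all genes, set below the estimate for HF females. That run does not show what could be detected in these groups. Values by library are given for members called with groups that do not overlap, largest change first, up to 6 a comparison; others named in the text were chosen after their values were seen. Members, gene lists and markers were chosen with earlier results of these data known. FPKM serve for levels between genes. Shared sequence came from GENCODE M21 transcripts. Some genes of the pathway lists are not reported here by name.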

Additional observations from a re-analysis of the deposited data

Results flagged for a closer look

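Single libraries stood apart from the rest of their group in 18 of 200 sets of a member and a group (the 20 members with the largest changes among those called without overlap, up to 6 a comparison, in 10 groups; the other 17 were not examined), where the gap to the nearest library passed Dixon's 95% critical value; chance gives about 1 in 20. Replicate 1 of the HFCF control males was high for Acaa1b (3993 CPM), Decr2 (308 CPM), Eci1 (178 CPM) and Ehhadh (708 CPM). Replicate 3 of the LF labelled-knockout females was high for Acaa2 (1010 CPM), Decr2 (379 CPM) and Eci1 (190 CPM) and low for Acad12 (13.3 CPM). Of the HFCF labelled-knockout males, replicate 3 was high for Pdk4 (46.5 CPM) and low for Acaa1a (196 CPM), replicate 2 was low for Abcd2 (27.4 CPM) and replicate 6 was high for Decr2 (252 CPM). Acad12 was high in replicate 2 of the HFCF control males (40.6 CPM). Among the HF control females, Abcd2 was high in replicate 1 (136 CPM) and Bdh1 in replicate 2 (625 CPM). Among the HFCF control females, Acaa2 was high in replicate 3 (744 CPM) and Acsl3 low in replicate 2 (39.1 CPM). Acat1 was low in replicate 3 of the HF labelled-knockout females (520 CPM).

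With all libraries, the interaction of labelled knockout and HFCF diet in males passed in edgeR's quasi-likelihood test for Pdk4 (1.6339 on the log2 scale), Pex11a (0.5241) and Cpt1a (0.3504). The edgeR adjusted p were 0.0472, 0.0334 and 0.0416. Their calls were kept in 9, 17 and 8 of 24 fits that left out 1 library. With all 10 groups in one fit, or with a replicate block, 0 members were called.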

How the results depend on the processing

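Of the 120 called results on single members, none reversed in an alternative; members not called were not followed there. With all 10 groups in one fit, the members called numbered 6 for the labelled knockout in HF males, 3 in HFCF males and 1 in HFCF females, 4 and 2 for HF against LF in control and labelled-knockout females, 12, 6 and 18 for HFCF against HF in labelled-knockout females, control males and labelled-knockout males, 9 for the sexes on HF and 0 for the interaction of labelled knockout and diet in males. DESeq2's Wald test gave 9 for the labelled knockout in HFCF males, 3 in HF females, 3 and 2 for HF against LF, 5 for the sexes on HFCF and 2 for the interaction with sex on HF. Without the filter, 1 was called for HF against LF in labelled knockouts. Leaving out 1 library gave 1 to 18 calls for HFCF against HF in labelled-knockout females, 8 to 27 in control males, 6 to 24 for the sexes on HF, 1 to 4 on HFCF, 0 to 5 for the interaction of labelled knockout and diet in males, 0 to 2 for that with sex on HF and 0 to 10 for that of HFCF with sex. The cause of these shifts was not tested. In no comparison did every pair of same-numbered libraries deviate together (correlation over 0.1), but some pairs did. Between labelled knockouts and controls, the highest correlation was 0.374 in LF females and 0.431 in HF females. In each of these, 2 of 4 pairs were over 0.1. Whether the replicate numbers mark a pairing cannot be told from this. With a replicate block, 0 and 2 members were called for HFCF against HF in control and labelled-knockout females, 1 for the sexes on HFCF and 0 for the interaction of labelled knockout and diet in males. Of 120 results on single members, 78 kept their call in every fit that left out 1 library.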
